A study of Mus musculus with 12 samples.

Results

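Polycomb repressive complex 2 (PRC2) is the enzyme complex that methylates histone H3 at lysine 27, and 10 genes of it are described here: Ezh1, Ezh2, Eed, Suz12, Rbbp4, Rbbp7, Phf1, Mtf2, Phf19 and Jarid2. They were chosen by name, from the gene symbols of the deposited tables, and joined by gene identifier to the count of each library. All 10 were found, each as 1 row, of 27179 genes in all. All 10 passed the filter on low counts in each of the 5 comparisons.

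The libraries were made from RNA of the dorsal cortex of C57BL/6 mouse embryos, collected on embryonic days E14.5 or E16.5. Each age had 3 wild-type (WT) libraries and 3 of Ash2l conditional knockout (cKO) embryos, in which D6-Cre, a Cre recombinase active in the dorsal telencephalon, acts on Ash2l. Whether the WT embryos carried Cre or a conditional Ash2l allele, and which exons are removed, is not given in the sources used here. Each title holds a number that 1 WT and 1 cKO library of the same age share. The letters A, B and C stand for these numbers, lowest first, so WT A and cKO A of an age share one. Nothing in the labels says what the numbers stand for or that the libraries came from separate litters, so the p-values speak to the variation among the 12 libraries as sequenced, some of which may be technical.

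PRC2 is built on a core in which EZH2, or its less active relative EZH1, carries the catalytic SET domain and needs EED and SUZ12 to work. The histone-binding proteins RBBP4 and RBBP7 complete the core, and accessory subunits bring it to chromatin: the Polycomb-like proteins PHF1, MTF2 and PHF19 define one form, and JARID2 another. ASH2L is a core subunit of the COMPASS enzymes that methylate lysine 4 of histone H3, a mark that is known to counter Polycomb silencing. In the developing cortex, dividing progenitors are known for high Ezh2, and PRC2 there is known to influence when progenitors switch from making neurons to making glia.

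Library totals ran from 14318147 to 24719047 counted fragments. A level is given as CPM, the usual scaling of a gene's count to its library's total, here adjusted by TMM, and the changes are log2 fold changes from edgeR's quasi-likelihood test with Benjamini-Hochberg adjustment over all genes tested, called at an adjusted p under 0.05. Ash2l checks the labels: it was 129 ± 12.9 CPM in WT and 52.8 ± 6.61 in cKO at E14.5, and 133 ± 3.57 against 58.1 ± 3.30 at E16.5 (SD, n = 3 each). The log2 fold changes of Ash2l were -1.28 (SE 0.121, adjusted p = 0.0124) and -1.20 (SE 0.0683, adjusted p = 8.19e-04). Emx1, which marks the dorsal telencephalon, was present throughout, between 22.4 and 65.3 CPM. At E14.5 all 3 WT embryos were male and all 3 cKO embryos female by their sex-linked genes, so genotype and sex cannot be told apart at that age, while at E16.5 each genotype had 2 males and 1 female. In bulk tissue, fewer cells of a type and less RNA per cell cannot be told apart.

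Phf19 was the member whose level differed between genotypes at both ages, and its 250 bases before the RefSeq start (GRCm38.p6) are shown beside those of its Polycomb-like relatives, Mtf2 and Phf1. The files hold no measurement on promoters, so these stretches are context for the expression values. Each runs 5′ to 3′ on the strand of its gene and ends at the base before the start, with each C followed by G (CpG) in capitals. They lie at chr2:34913977-34914226 on the minus strand for Phf19, at chr5:108065424-108065673 on the plus strand for Mtf2, and at chr17:26932877-26933126 on the plus strand for Phf1.
Phf19: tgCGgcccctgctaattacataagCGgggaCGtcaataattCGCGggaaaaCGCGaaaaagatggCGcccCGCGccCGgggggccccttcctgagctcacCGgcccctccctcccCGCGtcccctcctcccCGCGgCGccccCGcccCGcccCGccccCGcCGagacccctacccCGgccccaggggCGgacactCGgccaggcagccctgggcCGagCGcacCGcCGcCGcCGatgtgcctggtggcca
Mtf2: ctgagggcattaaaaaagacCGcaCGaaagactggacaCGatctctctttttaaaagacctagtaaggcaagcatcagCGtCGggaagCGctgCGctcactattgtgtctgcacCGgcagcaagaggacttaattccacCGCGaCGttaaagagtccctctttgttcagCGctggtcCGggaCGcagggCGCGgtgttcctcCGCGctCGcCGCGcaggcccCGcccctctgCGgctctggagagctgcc
Phf1: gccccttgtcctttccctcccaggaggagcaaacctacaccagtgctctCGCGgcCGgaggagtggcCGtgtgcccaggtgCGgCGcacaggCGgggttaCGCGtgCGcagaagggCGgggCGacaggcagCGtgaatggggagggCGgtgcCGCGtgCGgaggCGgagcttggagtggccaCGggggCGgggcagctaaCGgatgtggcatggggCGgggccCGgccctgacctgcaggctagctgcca
The stretches hold 31, 23 and 23 CpG. The RefSeq table gives full windows of 300 bases (250 before and 50 after the start) for all 10 members, and a second one for Mtf2 and Jarid2. With 1 window a member, for those 2 genes the one at the start of the count table's gene model, the CpG count ran from 17 in Eed to 41 in Suz12, with 38 in Phf19, against a median of 7 over all 32817 windows of the table, in which a gene can have several. The second windows held 2 CpG in Mtf2 and 23 in Jarid2. For 9 of the 10 members the window used is placed on the same start as the count table's gene model, and for Ezh1 it is not. Motifs were searched on both strands as plain letters. CCAAT, the letters bound by NF-Y, stood in 6 of the 10 windows used (Eed, Ezh2, Jarid2, Rbbp4, Rbbp7 and Suz12) and in 37.4% of all windows, but not in the windows used for Phf19, Mtf2, Phf1 or Ezh1, while the second window of Mtf2 holds it. TTTGGCGC, an E2F-type motif, stood in Ezh2 alone of the members and in 0.515% of all windows, and the related TTTCGCGC in no member and in 0.323%. Other E2F-type words were not searched, so no member, Phf19 included, is shown to lack such a motif. GGAAGT, an ETS-type motif, stood in Jarid2, Rbbp4 and Rbbp7 and in 23.8% of all windows, and TATAAA in none of the 10 windows used, in the second window of Jarid2, and in 13.6% of all windows. These are matches of letters and not binding sites.

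Between genotypes, 1 of the 10 genes was called at each age, the same one, Phf19, and it was lower in cKO. At E14.5 the background was 2.01% of 14788 genes called in either direction, 1.66% lower and 0.352% higher, and at E16.5 it was 15.9% of 14865 genes, 9.88% lower and 5.98% higher. The other 9 members were not called at either age, and 0 of 10 were called higher. With the title number as a replicate block, which the libraries of E16.5 are taken to share, 3 of 10 were called at that age, Phf19 and Ezh1 lower and Eed higher, where 32.2% of all genes were. The median log2 fold change of the 10 was -0.01 at E14.5, beside 0.03 for all genes tested, and -0.01 at E16.5, beside 0.02. Libraries of cKO and WT did not overlap for 1 of 10 members at E14.5, where this was so for 26.8% of all genes, and for 2 of 10 at E16.5, where it was so for 37.5%. In the authors' deposited table, made with DESeq2, Phf19 was likewise the 1 member with an adjusted p under 0.05 at each age, where 7.91% of the genes with an adjusted p passed at E14.5 and 17.0% at E16.5.

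**Figure D1:**
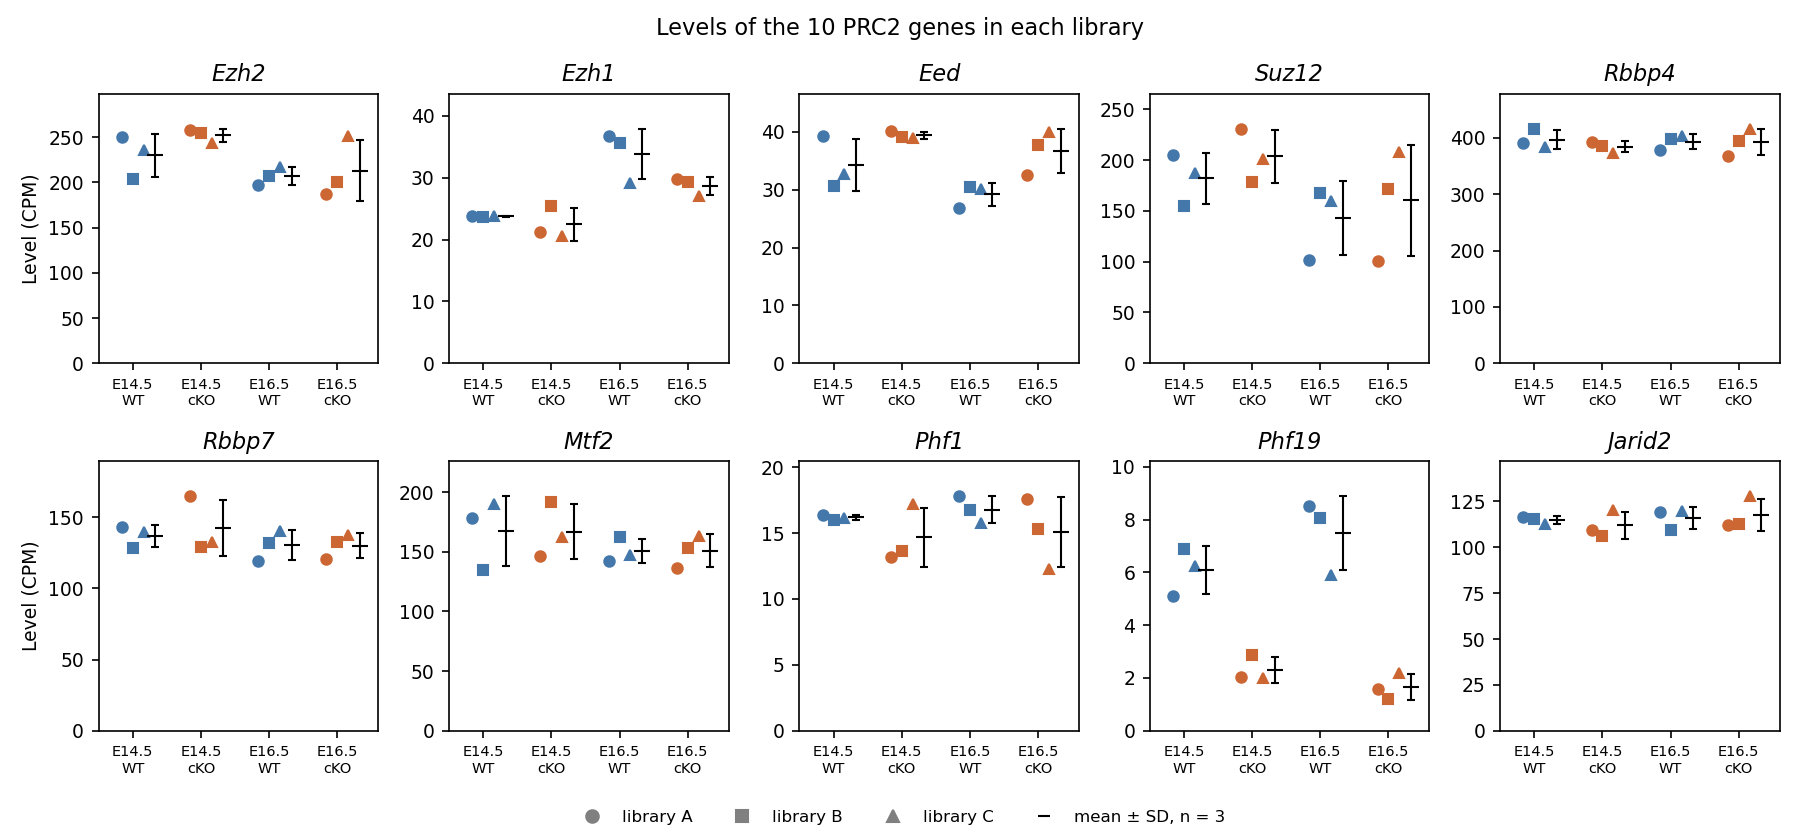
Level of each of the 10 genes (CPM, vertical axis from 0, a scale of its own in each panel) in the 12 libraries, by age and genotype; circles are A, squares B and triangles C libraries, and the black bar beside each group is its mean ± SD (n = 3). Phf19 lies between 5.10 and 8.50 CPM in the 6 WT libraries and between 1.19 and 2.86 in the 6 cKO libraries, and Suz12 is at 101 CPM in both A libraries of E16.5.

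Phf19 encodes a Polycomb-like subunit whose Tudor domain binds histone H3 methylated at lysine 36 (Entrez 74016, minus strand of chromosome 2, 34893755 to 34913976 in mm10, 15 exon intervals and 3743 bases of exon). At E14.5 its level was 5.10, 6.89 and 6.23 CPM in WT A, B and C, and 2.05, 2.86 and 2.01 CPM in cKO A, B and C. Every cKO library lay below every WT library, and the highest cKO library, B, was at 2.86 CPM where the lowest WT library, A, was at 5.10. These levels rest on few fragments, 102, 109 and 135 in WT and 38, 41 and 49 in cKO. The mean was 6.08 ± 0.907 CPM in WT and 2.31 ± 0.479 in cKO (SD, n = 3 each), 2.63-fold lower (95% confidence interval 1.78 to 3.89), a log2 fold change of -1.40 (SE 0.242, edgeR adjusted p = 0.0387). Leaving out any 1 library kept the log2 fold change between -1.57 and -1.30, but the call held in 1 of 6 such fits, that without cKO A (adjusted p = 0.0492). It was lost without cKO B (adjusted p = 0.0636), cKO C (0.194), WT A (0.0688), WT B (0.121) or WT C (0.174). In a fit of all 12 libraries with sex as a term, the E14.5 change was -1.84 (adjusted p = 0.0357). Sex varied only within the E16.5 groups, so that term comes from E16.5 and is assumed equal at E14.5. The fit therefore cannot separate genotype from sex at E14.5. In it the Y-linked Uty was at 1.53 at E14.5, against -8.57 without the term.

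At E16.5 the level of Phf19 was 8.50, 8.08 and 5.90 CPM in WT A, B and C, and 1.60, 1.19 and 2.18 CPM in cKO A, B and C. The groups again did not overlap, and the nearest libraries were the 2 of letter C, WT C at 5.90 and cKO C at 2.18. The fragment counts were 160, 139 and 115 in WT and 30, 23 and 33 in cKO. The mean was 7.49 ± 1.39 CPM in WT and 1.66 ± 0.496 in cKO (SD, n = 3 each), 4.58-fold lower (95% confidence interval 3.01 to 6.97), a log2 fold change of -2.19 (SE 0.263, edgeR adjusted p = 0.00274). The call held without any 1 library, with log2 fold changes from -2.42 to -2.0 and adjusted p-values from 0.00239 to 0.0192. Without both B libraries, a fit that called 0 of all genes, the change was -1.94 (adjusted p = 0.109). Within libraries that share a number, the cKO level of Phf19 over the WT level was 0.401, 0.415 and 0.323 at E14.5 and 0.188, 0.148 and 0.369 at E16.5, below 1 in 6 of 6. In the authors' deposited table the log2 fold change, read as knockout over WT, was -1.13 (DESeq2 adjusted p = 6.72e-05) at E14.5 and -1.70 (adjusted p = 4.04e-11) at E16.5. These come from an older DESeq2 and may not be on the same scale as the values above. DESeq2 run here gave -1.41 at E14.5, and the reason for the authors' smaller values was not tested.

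The change of Phf19 was not shown to differ between the ages. The log2 fold change at E16.5 exceeded that at E14.5 by -0.78 (SE 0.356, 95% confidence interval -1.56 to -9.41e-04), with an unadjusted p of 0.0498 and an edgeR adjusted p of 1 over 15338 genes. In this test of the age difference edgeR called 0% of all genes and 0 of the 10 members, and DESeq2 called 0 members too. Of the 10, 1, Phf19, had an unadjusted p under 0.05, where 2.07% of all genes did. In WT alone, Phf19 at E16.5 over E14.5 had a log2 fold change of 0.30 (95% confidence interval -0.21 to 0.81, adjusted p = 0.413), and in cKO -0.48 (-1.06 to 0.11, adjusted p = 0.233).

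Markers of other cells moved with genotype in the same libraries, and their part in the Phf19 result, and in the other genotype differences given here, was not tested. At E16.5, 10 of 18 pan-neuronal markers fell in cKO and 0 rose (median log2 fold change -0.54), and their summed level was 7549 to 8538 CPM in WT and 5748 to 6169.8 CPM in cKO. Of 15 apical progenitor markers 3 rose and 1 fell (median 0.24), with sums of 2989.9 to 3394 CPM in WT and 2904 to 3579 CPM in cKO. At E14.5 the pan-neuronal sums were 4853 to 7103 CPM in WT and 2672 to 5082 CPM in cKO, with 1 of 18 lower (median -0.66). None of these markers was at 0 in any library. The library cKO A of E14.5 stood apart: its 11 meningeal fibroblast markers summed to 367 CPM against 21.2 to 60.9 CPM in the other 5 libraries of that age, with Col1a1 at 60.8 CPM, and its pan-neuronal markers to 2672 CPM. Its red blood cell markers summed to 676 CPM against 158 to 323 CPM, and its endothelial and pericyte markers to 270 CPM against 123 to 194 CPM. Its cell cycle genes were the highest of that age too, at 2824 CPM (G1/S, against 1670 to 2222) and 4308 CPM (G2/M, against 2611 to 3418). The 8 choroid plexus markers summed to 497 CPM in E14.5 WT A, against 29.5 to 62.3 CPM in the other libraries of that age, and to 634 CPM in E16.5 WT C, against 10.5 to 36.3 CPM. E16.5 WT C is also the WT library of its age with the lowest Phf19 and Ezh1, and without it Phf19 changed by -2.33 (adjusted p = 0.00685) and Ezh1 by -0.33 (adjusted p = 0.0693) at E16.5. The 15 GABAergic and ventral markers summed to 449 CPM in E14.5 WT B, against 126 to 236 CPM. At E14.5 Phf19 changed by -1.34 without cKO A (adjusted p = 0.0492), and its call was lost without WT A or WT B, as given above.

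**Figure D2:**
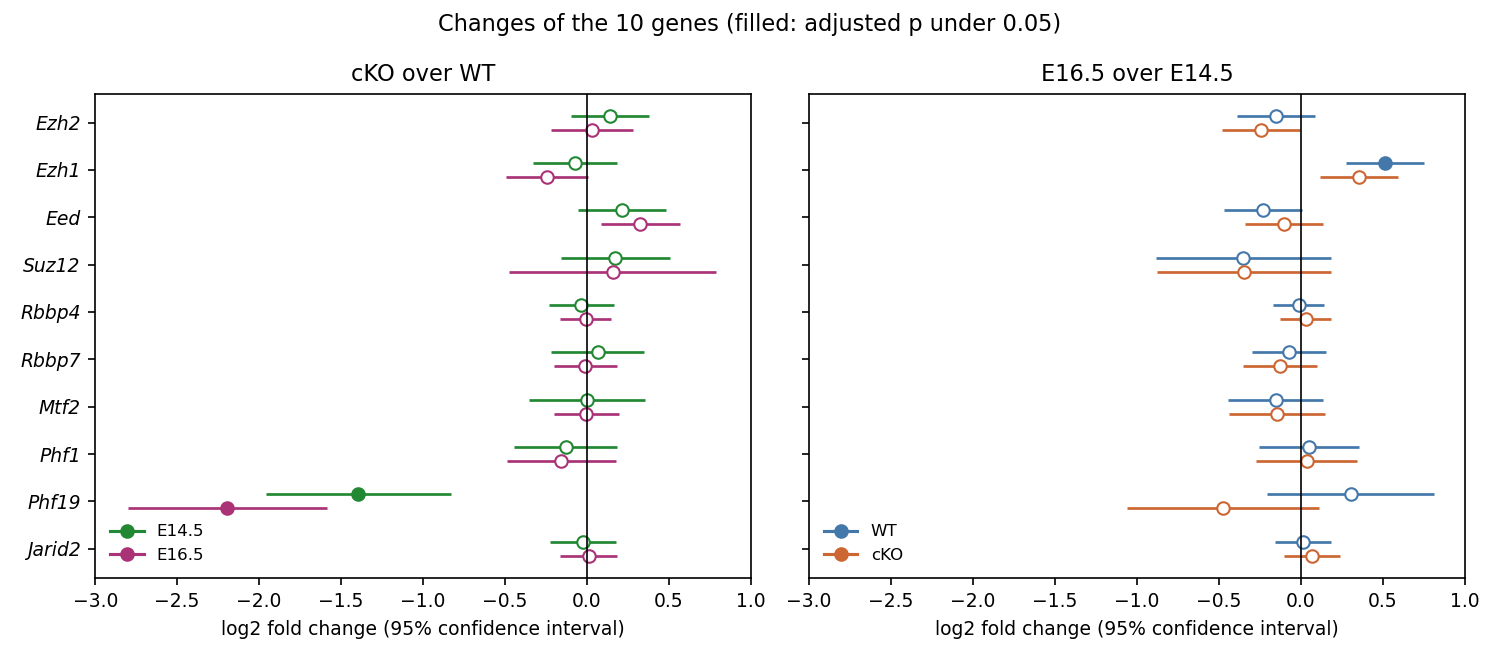
Log2 fold changes of the 10 genes with 95% confidence intervals (horizontal axis) from edgeR, cKO over WT at each age on the left and E16.5 over E14.5 in each genotype on the right; filled points passed an adjusted p of 0.05. Phf19 is the filled gene on the left (-1.40 and -2.19) and Ezh1 in WT the filled point on the right (0.51).

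Mtf2 and Phf1, the other Polycomb-like subunits, share with PHF19 a Tudor domain and plant homeodomain fingers. Mtf2 (Entrez 17765, plus strand of chromosome 5, 108065674 to 108109219) was at 178, 135 and 189.8 CPM in WT and 147, 191 and 162 CPM in cKO at E14.5. WT B was the lowest and cKO B the highest of these 6 libraries, and the groups overlapped. At E16.5 Mtf2 was at 142, 162 and 148 CPM in WT and 136, 153 and 163 CPM in cKO, overlapping again. Its log2 fold changes were 0.00 (95% confidence interval -0.35 to 0.36, adjusted p = 0.994) and -0.00 (-0.20 to 0.19, adjusted p = 0.980).

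Phf1 (Entrez 21652, plus strand of chromosome 17, 26933127 to 26937890) was at 16.40, 16.003 and 16.16 CPM in WT and 13.2, 13.6 and 17.2 CPM in cKO at E14.5, and at 17.8, 16.7 and 15.8 CPM in WT and 17.6, 15.3 and 12.3 CPM in cKO at E16.5. The WT libraries lay close together at E14.5, and at both ages the groups overlapped. The log2 fold changes of Phf1 were -0.13 (95% confidence interval -0.44 to 0.18, adjusted p = 0.629) and -0.16 (-0.49 to 0.17, adjusted p = 0.497).

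Scaled by exon length, Mtf2 made up most of the RNA of the 3 Polycomb-like genes in every library. Its share was 79.1% ± 3.31 in WT and 82.6% ± 2.46 in cKO at E14.5, and 76.4% ± 2.15 and 81.2% ± 3.72 at E16.5 (SD, n = 3 each). The share of Phf19 was 3.23%, 5.39% and 3.73% in WT A, B and C and 1.61%, 1.78% and 1.39% in cKO at E14.5. At E16.5 it was 6.18%, 5.39% and 4.35% in WT and 1.27%, 0.888% and 1.58% in cKO, so at both ages all cKO libraries were below all WT libraries. The share of Phf1 was 16.7% ± 2.27 in WT and 15.8% ± 2.66 in cKO at E14.5, and 18.3% ± 1.42 and 17.6% ± 3.86 at E16.5.

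A ratio of 2 genes within a library does not depend on how libraries are scaled to each other. The length-scaled ratio of Mtf2 to Phf19 was 24.97, 13.98 and 21.79 in WT A, B and C and 51.3, 47.9 and 57.7 in cKO at E14.5, and 11.96, 14.36 and 17.90 in WT and 61.1, 91.8 and 53.6 in cKO at E16.5. All 6 cKO ratios were above all 6 WT ratios. The mean difference over both ages was 1.81 on the log2 scale (exact permutation test of genotype within age, two-sided, 400 assignments, p = 0.005, the smallest they can give, and 0.015 adjusted over the 3 ratios tested). Within an age alone the difference was 1.41 at E14.5 and 2.20 at E16.5, each with an exact permutation p of 0.1, the smallest that 20 assignments allow. The ratio uses the fragments of Phf19 already tested above and is not separate evidence on that gene.

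**Figure D3:**
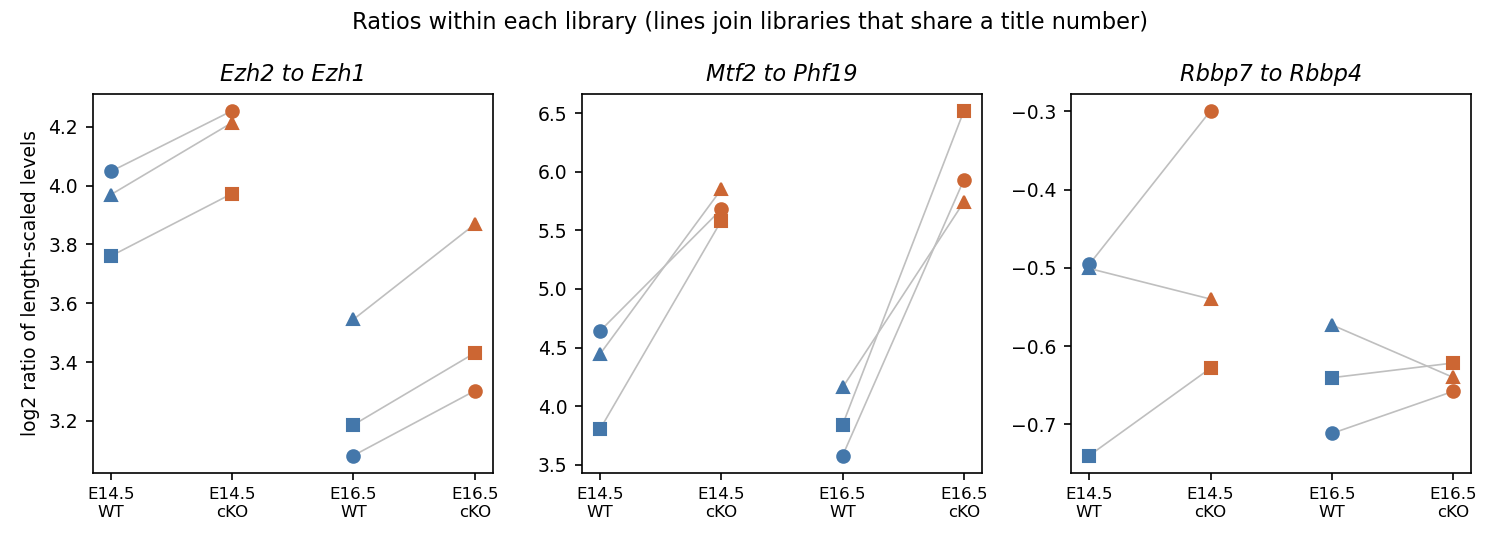
Log2 ratio of length-scaled levels within each library for 3 pairs of related genes, each panel with its own vertical scale; circles, squares and triangles are libraries A, B and C, and grey lines join the WT and cKO library that share a title number. Mtf2 to Phf19 is higher in every cKO library, Ezh2 to Ezh1 is higher along every line, and Rbbp7 to Rbbp4 overlaps between genotypes.

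Jarid2, which founds the other accessory form and binds nucleosomes, had one of the narrowest intervals of the 10 (Entrez 16468, plus strand of chromosome 13, 44730774 to 44921643). It was at 117, 115 and 112 CPM in WT and 109, 106 and 120.3 CPM in cKO at E14.5, and at 119, 109 and 119.9 CPM in WT and 112, 113 and 128 CPM in cKO at E16.5. The groups overlapped at both ages. Its log2 fold changes were -0.03 (95% confidence interval -0.23 to 0.17, adjusted p = 0.885) and 0.01 (-0.16 to 0.19, adjusted p = 0.943), so at E16.5 the interval leaves out a change of 0.19 or more in either direction.

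Ezh2 and Ezh1, the alternative catalytic subunits, were not called between genotypes. Ezh2 (Entrez 14056, minus strand of chromosome 6, 47530274 to 47595030) was at 250.4, 204 and 236 CPM in WT and 258, 254 and 244 CPM in cKO at E14.5, and at 198, 207 and 217 CPM in WT and 187, 201 and 251 CPM in cKO at E16.5. The low library was WT B at E14.5 and the high one cKO C at E16.5, and the groups overlapped at both ages. The log2 fold changes of Ezh2 were 0.14 (95% confidence interval -0.10 to 0.38, adjusted p = 0.479) and 0.03 (-0.22 to 0.28, adjusted p = 0.870).

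Ezh1 (Entrez 14055, minus strand of chromosome 11, 101191115 to 101226450) was at 23.8, 23.7 and 23.7 CPM in WT and 21.3, 25.5 and 20.7 CPM in cKO at E14.5, where the groups overlapped. At E16.5 it was at 36.7, 35.7 and 29.2 CPM in WT and 29.8, 29.3 and 27.0 CPM in cKO. There WT C lay among the cKO libraries and the other 2 WT libraries above all of them. The log2 fold changes of Ezh1 were -0.07 (95% confidence interval -0.33 to 0.18, adjusted p = 0.75) at E14.5 and -0.24 (-0.49 to 0.00, adjusted p = 0.165) at E16.5. With the title number as a replicate block at E16.5 the value was -0.24 (edgeR adjusted p = 0.0431), past the threshold. That is 1 of the 3 members this fit called.

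Ezh1 was the one member called over age in WT. Its WT level went from 23.7 ± 0.0729 CPM at E14.5 to 33.9 ± 4.06 CPM at E16.5 (SD, n = 3 each), a log2 fold change of 0.51 (SE 0.109, 95% confidence interval 0.27 to 0.75, edgeR adjusted p = 0.0406). Of all 15338 genes 2.15% were called over age in WT, 0.763% as higher at E16.5, and 1 of the 10 members was called. Between the WT libraries of the 2 ages, Ezh1 (higher at E16.5) and Eed (lower) did not overlap, 2 of 10 members, where this was so for 35.3% of all genes. The call on Ezh1 was lost with sex as a term (0.50, adjusted p = 0.0896) and without E14.5 WT A (adjusted p = 0.166), E14.5 WT C (0.170), E16.5 WT A (0.174), E16.5 WT B (0.152), E14.5 cKO C (0.0605) or E16.5 cKO B (0.0664), while the log2 fold change stayed between 0.45 and 0.61 without any 1 library.

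In cKO the level of Ezh1 was 22.5 ± 2.61 CPM at E14.5 and 28.7 ± 1.48 CPM at E16.5 (SD, n = 3 each), and the libraries of the ages did not overlap, as for 1 of 10 members and 33.7% of all genes. The log2 fold change of 0.36 was not called (95% confidence interval 0.12 to 0.60, edgeR adjusted p = 0.0578), and 0 of 10 members were called over age in cKO, where 7.62% of all genes were. At an unadjusted p under 0.05 the count was 2 of 10, Ezh1 and Ezh2, where 33.8% of all genes passed. DESeq2 called 1, Ezh1 (adjusted p = 0.0314), a count given here without its share of all genes. Without E14.5 cKO B the change of Ezh1 was 0.43 (adjusted p = 0.0216). Ezh2 over age in cKO had a log2 fold change of -0.24 (95% confidence interval -0.48 to -0.00, adjusted p = 0.141), and -0.38 (adjusted p = 0.0402) without E16.5 cKO C, where it passed. The age difference of the cKO effect on Ezh1 was -0.16 (95% confidence interval -0.49 to 0.18, adjusted p = 1). The cKO libraries were 3 females at E14.5 and 2 males and 1 female at E16.5. The WT libraries were 3 males at E14.5 and 2 males and 1 female at E16.5. No title number spans both ages, so in either genotype age cannot be told apart from what the numbers stand for.

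Summed levels of cell cycle and neuronal genes also differed between the ages in WT, though of these lists only G2/M genes were called. Their part in the Ezh1 result was not tested. Of 20 G2/M genes 9 fell from E14.5 to E16.5 and 0 rose (median log2 fold change -0.88), with sums of 2611 to 3418 CPM at E14.5 and 1419.6 to 1943 CPM at E16.5. Of 24 G1/S genes 0 were called (median -0.61), with sums of 1757 to 2222 CPM at E14.5 and 1182 to 1443 CPM at E16.5. Of 18 pan-neuronal markers 0 were called (median 0.64), with sums of 4853 to 7103 CPM at E14.5 and 7549 to 8538 CPM at E16.5. None of these genes was at 0 in any library.

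Per length, Ezh2 RNA exceeded Ezh1 RNA many fold in every library. The ratio of Ezh2 to Ezh1 was 16.54, 13.55 and 15.66 in WT A, B and C and 19.1, 15.7 and 18.6 in cKO at E14.5, and 8.47, 9.10 and 11.7 in WT and 9.86, 10.8 and 14.6 in cKO at E16.5. Within each genotype every E14.5 ratio was above every E16.5 ratio, and the cKO library was above the WT library of the same number in each of the 6 numbers. The groups overlapped at each age, and the difference between genotypes was 0.24 on the log2 scale (exact permutation test within age, two-sided, p = 0.07, adjusted p = 0.105). With signs flipped within the 6 numbers as a replicate block, the exact p was 0.0312, the smallest that 64 flips allow, and the adjusted p 0.0469. That test pairs the E14.5 libraries too, which were not taken as paired. Their same-numbered libraries correlated at 0.272 (A) and 0.304 (B) but at -0.0022 (C). As a share of the 2 catalytic genes, Ezh1 was 6.19% ± 0.608 in WT and 5.36% ± 0.547 in cKO at E14.5, and 9.45% ± 1.39 and 8.03% ± 1.45 at E16.5 (SD, n = 3 each).

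At E16.5 the catalytic pair also varied by library number. Library C had the lowest Ezh1 and the highest Ezh2 of its genotype, in WT and in cKO alike, and library A the highest Ezh1 and the lowest Ezh2. The G2/M genes stood at a median of 0.20 (WT C) and 0.58 (cKO C) on the log2 scale against the WT mean of that age, and at -0.21 (WT A) and -0.15 (cKO A). The part of these genes in the catalytic ratio was not tested.

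Eed and Suz12 encode the core partners without which EZH2 is inactive, and EED also reads the methyl mark that the complex writes. Eed (Entrez 13626, minus strand of chromosome 7, 89954654 to 89980976) was at 39.4, 30.7 and 32.7 CPM in WT and 40.2, 39.0 and 38.9 CPM in cKO at E14.5, where WT A lay among the cKO libraries. At E16.5 it was at 26.9, 30.5 and 30.1 CPM in WT and 32.5, 37.7 and 40.0 CPM in cKO, and every cKO library was above every WT library. The log2 fold changes of Eed were 0.21 (95% confidence interval -0.06 to 0.48, edgeR adjusted p = 0.352) and 0.32 (0.08 to 0.57, unadjusted p = 0.0146, adjusted p = 0.0733), and neither was called.

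At E16.5 Eed lay near the threshold, and the setting decided the call. It passed with the replicate block (0.32, adjusted p = 0.0101), with library totals in place of TMM scaling (0.36, adjusted p = 0.0488), without cKO A (0.41, adjusted p = 0.0222) and without both A libraries (0.35, adjusted p = 0.0301). Leaving out any other single library gave adjusted p-values between 0.132 and 0.208. Within numbers the ratio of cKO to WT for Eed was 1.02, 1.27 and 1.19 at E14.5 and 1.21, 1.24 and 1.33 at E16.5, above 1 in 6 of 6. The age difference was 0.13 (95% confidence interval -0.21 to 0.47, adjusted p = 1).

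Suz12 (Entrez 52615, plus strand of chromosome 11, 79993106 to 80034123) had the largest standard error of the 10 at E16.5 (0.273 on the log2 scale). It was at 205, 155 and 187 CPM in WT and 231, 179 and 201 CPM in cKO at E14.5. At E16.5 it was at 101, 168 and 159.8 CPM in WT and 101, 172 and 208 CPM in cKO. Both A libraries of E16.5, which share a number, stood at 101 CPM, while the other 4 libraries lay between 159.8 and 208 CPM, with a mean 1.75-fold that of the A libraries. The log2 fold changes between genotypes were 0.17 (95% confidence interval -0.16 to 0.50, adjusted p = 0.540) and 0.16 (-0.47 to 0.79, adjusted p = 0.739), and single libraries decide the size and sign of the later one. It was 0.40 without cKO A, -0.04 without WT A and -0.07 without cKO C, and 0.20 without both A libraries (adjusted p = 0.151). Over age in WT the value was -0.35 (-0.88 to 0.18, adjusted p = 0.363), and without both A libraries of E16.5 -0.15 (adjusted p = 0.573).

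Other members also stood low in those A libraries. Of the 10 members, Suz12, Ezh2, Mtf2, Rbbp4 and Rbbp7 were lower in both A libraries than in all other E16.5 libraries, and Phf1 was higher in both. The mean of the A libraries over the mean of the other 4 was 0.572 for Suz12, 0.879 for Ezh2, 0.889 for Mtf2, 0.926 for Rbbp4, 0.884 for Rbbp7 and 1.18 for Phf1. These libraries were singled out after their values were seen, so the ratios are a description with no test. Their apical progenitor markers stood at a median of -0.21 (WT A) and -0.22 (cKO A) against the WT mean of that age, and their part in the Suz12 levels was not tested.

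Rbbp4 and Rbbp7, the histone chaperones that PRC2 shares with other complexes, were not called between genotypes or over age. Rbbp4 (Entrez 19646, minus strand of chromosome 4, 129307100 to 129335370) was at 391, 416 and 383 CPM in WT and 393, 387 and 374 CPM in cKO at E14.5, and at 378.1, 398 and 404 CPM in WT and 368, 395 and 415 CPM in cKO at E16.5. The groups overlapped at both ages, with log2 fold changes of -0.03 (95% confidence interval -0.23 to 0.17, adjusted p = 0.850) and -0.01 (-0.17 to 0.15, adjusted p = 0.948). Rbbp7 (Entrez 245688, plus strand of the X chromosome, 162760372 to 162779090) was at 143, 128 and 139.7 CPM in WT and 164.7, 129 and 133 CPM in cKO at E14.5, and at 119, 132 and 140.1 CPM in WT and 120.3, 132 and 137 CPM in cKO at E16.5. The high value at E14.5 is cKO A, and the groups overlapped at both ages, with log2 fold changes of 0.06 (-0.22 to 0.35, adjusted p = 0.801) and -0.01 (-0.20 to 0.18, adjusted p = 0.955). The length-scaled ratio of Rbbp7 to Rbbp4 ran from 0.599 to 0.709 in WT and from 0.647 to 0.813 in cKO at E14.5, and from 0.611 to 0.672 and from 0.634 to 0.650 at E16.5. It differed by 0.05 on the log2 scale between genotypes (exact permutation test within age, two-sided, p = 0.515, adjusted p = 0.515).

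Ordered per length, Rbbp4 and Ezh2 led and Phf19 came last in every group. In CPM per kb of exon, the E14.5 WT means were 90.0 for Rbbp4, 86.3 for Ezh2, 60.3 for Rbbp7, 41.7 for Suz12, 32.0 for Mtf2, 18.6 for Jarid2, 16.6 for Eed, 6.66 for Phf1, 5.66 for Ezh1 and 1.62 for Phf19. The ranges over 3 libraries overlapped for the neighbours Rbbp4 and Ezh2, Suz12 and Mtf2, and Jarid2 and Eed, and for no other neighbours in that group. The highest mean was 55.5-fold the lowest in E14.5 WT and 44.6-fold in E16.5 WT, and 153-fold and 201-fold in cKO, where Phf19 stood at 0.616 ± 0.128 (E14.5) and 0.443 ± 0.132 (E16.5) CPM per kb (SD, n = 3 each). Ezh1 and Phf1 changed places over age: in E16.5 WT Ezh1 was at 8.07 ± 0.969 and Phf1 at 6.90 ± 0.419 CPM per kb, with overlapping ranges. The summed CPM of the 10 genes ran from 1230.4 to 1369 in WT and 1313 to 1379.6 in cKO at E14.5, and from 1147 to 1269.7 and 1106 to 1385 at E16.5.

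**Figure D4:**
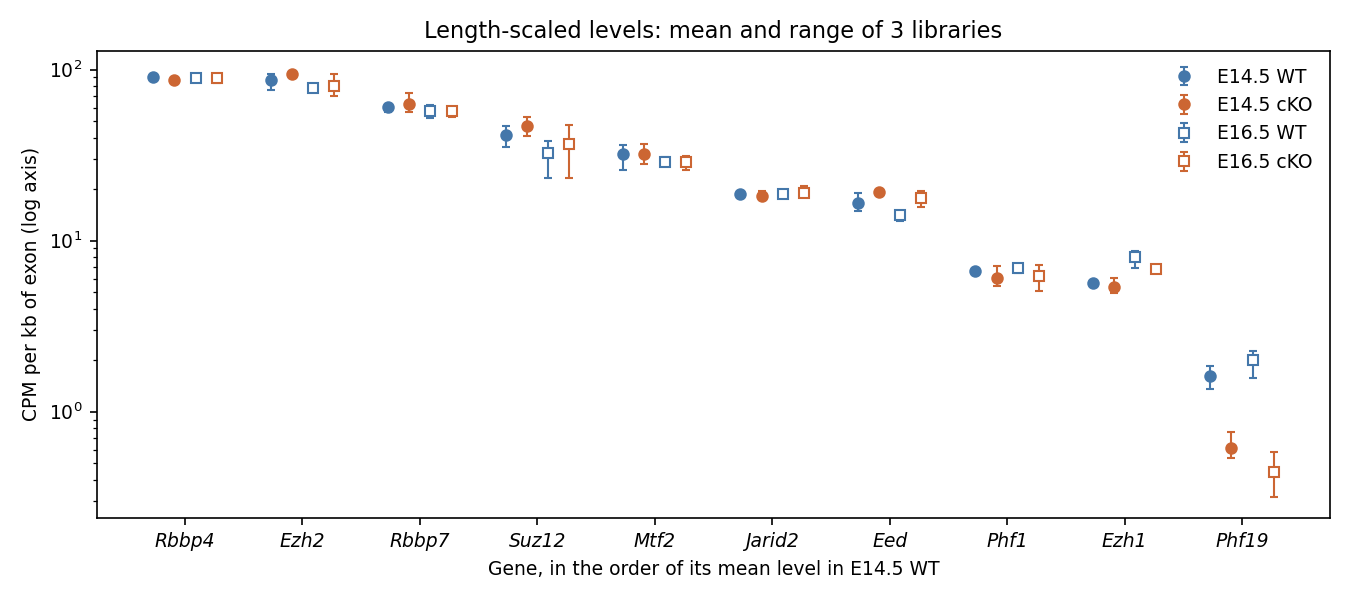
Length-scaled level of each gene (CPM per kb of exon, log axis) as the mean (point) and lowest to highest library (bar) of 3 libraries, genes ordered by E14.5 WT; filled circles are E14.5, open squares E16.5, blue WT and orange cKO. Levels run from 90.0 for Rbbp4 down to 1.62 for Phf19 in E14.5 WT, and Phf19 is the gene whose cKO bars lie clear below its WT bars at both ages.

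Other proteins that act with or against PRC2 were read from a list of 12, of which 10 were found by symbol and tested. At E14.5, 1 rose and 1 fell (median log2 fold change 0.07), where 2.01% of all genes were called. DESeq2 called 4, Asxl2 and Asxl3 besides, and 7.91% of genes passed in the authors' DESeq2 table at that age. Kdm6a, an X-linked demethylase of the PRC2 mark that escapes X inactivation, was at 91.0, 79.9 and 95.9 CPM in WT and 135, 159.9 and 143 CPM in cKO (0.72 on the log2 scale, SE 0.104, edgeR adjusted p = 0.0264). Its Y-linked relative Uty was at 64.2 to 110.8 CPM in WT and 0.0697 to 0.370 CPM in cKO (-8.57, adjusted p = 2.44e-04). Both genes are sex-linked, and at that age genotype and sex cannot be told apart. In the fit of 12 libraries with sex as a term, which comes from E16.5 alone, 0 of the 10 were called and Kdm6a was at 0.27 (adjusted p = 0.629). At E16.5 Kdm6a was at 103, 97.1 and 89.4 CPM in WT, of which A is female, and at 83.8, 105 and 157 CPM in cKO, of which C is female. The call on Kdm6a was also lost in 5 of the 6 fits without 1 library, all but that without cKO A.

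At E16.5, 1 of these 10 rose and 1 fell (median 0.08), where 15.9% of all genes were called. Both encode partners of the deubiquitinase BAP1, which removes the PRC1 mark. Asxl2 was at 93.3, 92.5 and 93.9 CPM in WT and 137, 125 and 133 CPM in cKO (0.49, SE 0.0619, adjusted p = 0.0030). Asxl3 was at 208, 173 and 176 CPM in WT and 145, 119 and 127 CPM in cKO (-0.52, SE 0.1001, adjusted p = 0.0131). For both the groups did not overlap, at E16.5 and at E14.5, where the log2 fold changes were 0.37 for Asxl2 (adjusted p = 0.101) and -0.56 for Asxl3 (adjusted p = 0.0726). This was so for 37.5% of all genes at E16.5 and 26.8% at E14.5. Of the same list, Aebp2 did not overlap at either age, nor did Kdm6b at E16.5 and Kdm6a and Uty at E14.5. Without cKO B the Asxl3 value was -0.46 (adjusted p = 0.0634). Without cKO A 4 of the 10 were called, in a fit whose share of all genes is not given here. With the replicate block it was 5, 3 higher and 2 lower, where 32.2% of all genes were called. These were Kdm6b, Lcorl and Aebp2 besides the Asxl pair.

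The subunits of PRC1, the complex that ubiquitinates histone H2A at Polycomb targets, were read from a list of 27, all tested. At E14.5, 0 passed with edgeR (median -0.01), where 2.01% of all genes did. DESeq2 called 1, Bcorl1, and 7.91% of genes passed in the authors' DESeq2 table. The fit with sex, whose sex term comes from E16.5, called Bcorl1 too (-0.65, adjusted p = 0.0371). The smallest p-values were those of Bcorl1 (-0.50, adjusted p = 0.0531) and L3mbtl2 (0.44, adjusted p = 0.120), with an unadjusted p of 0.00113 and 0.00953. At E16.5, 2 of the 27 rose and 2 fell (median 0.07), a share near the 15.9% of all genes called. Bcorl1, an X-linked corepressor of variant PRC1, was at 72.0, 66.9 and 69.4 CPM in WT and 43.0, 40.4 and 47.9 CPM in cKO (-0.67, SE 0.0821, adjusted p = 0.00287). Kdm2b, which brings variant PRC1 to unmethylated CpG islands, changed by -0.35 (SE 0.0789, adjusted p = 0.0236). L3mbtl2, of the E2F6-type PRC1, changed by 0.48 (SE 0.0933, adjusted p = 0.0135), and Cbx2, a reader of the PRC2 mark, by 0.31 (SE 0.0772, adjusted p = 0.0328). With the replicate block 9 of 27 were called, 6 higher and 3 lower, near the 32.2% of all genes. Bcorl1 kept its call without any 1 library (edgeR adjusted p from 0.00249 to 0.0203), and L3mbtl2 lost it without WT B alone (0.0647). Kdm2b lost its call without cKO B, cKO C, WT A or WT B, and Cbx2 without any of these or WT C. The number of all genes called also varied between these fits.

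The proteins that share RBBP4 and RBBP7 with PRC2, those of the NuRD, SIN3 and chromatin assembly complexes, were read from a list of 18, all tested. At E14.5, 0 rose and 1 fell (median 0.04): Mta3, a NuRD subunit, was at 33.1, 37.7 and 32.0 CPM in WT and 18.7, 22.2 and 20.5 CPM in cKO (-0.73, SE 0.111, adjusted p = 0.0298). That call too was lost in 5 of the 6 fits without 1 library, all but that without cKO A. DESeq2 called 3 at E14.5, Chd3 and Sin3a besides. At that age edgeR called 2.01% of all genes, and 7.91% passed in the authors' DESeq2 table. At E16.5, 1 of the 18 rose and 2 fell (median -0.00), a share near the 15.9% of all genes called. Mta3 was at 49.5, 45.9 and 39.7 CPM in WT and 17.6, 22.3 and 21.3 CPM in cKO (-1.15, SE 0.122, adjusted p = 0.00205). Chd3, a remodelling ATPase of NuRD, changed by -0.52 (SE 0.0763, adjusted p = 0.00506), and Sin3a, the scaffold of the SIN3 complex, by 0.39 (SE 0.0616, adjusted p = 0.00657). With the replicate block 5 of 18 were called, 3 higher and 2 lower, where 32.2% of all genes were. Without both B libraries of E16.5, the fit that called 0 genes, none of the calls on these 3 lists held.

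Developmental regulators of other tissues that PRC2 is known to silence in neural cells were near the floor in all groups. Of 58 such genes, only 3 passed the filter on low counts at E14.5 and 2 at E16.5, so the list as a whole could not be tested, and 0 were called. Of the 58, between 56 and 57 were under 1 CPM in every library, and 37 to 47 were at 0. Their summed level was 3.0002 to 15.3 CPM in WT and 3.49 to 8.83 CPM in cKO at E14.5, and 3.08 to 3.39 and 2.85 to 4.42 CPM at E16.5. The highest sum, that of E14.5 WT B, held 11.5 CPM of Isl1, a gene also expressed in the ventral forebrain, in a library where Gad2 was at 107 CPM against 7.27 to 46.2 CPM in the others of that age. Isl1 had a log2 fold change of -3.46 (95% confidence interval -6.99 to 0.06, edgeR adjusted p = 0.255) and Tbx15 of 1.51 (-0.06 to 3.08, adjusted p = 0.263) at E14.5. Single libraries moved both: Isl1 ran from -7.13 without cKO C to -2.26 without WT B, and Tbx15 was at 0.63 without cKO A, where it stood at 2.42 CPM against 0.976 and 0.493 CPM in cKO B and C. At E16.5 Tbx15 was at 0.690, 0.116 and 0.308 CPM in WT and 0.905, 0.778 and 0.793 CPM in cKO (1.12, 95% confidence interval -0.11 to 2.34, adjusted p = 0.193, and 1.89 without WT A and 0.72 without WT B), and Sox17 changed by 0.06 (adjusted p = 0.918). Cdkn2a, a cell cycle inhibitor and well-known PRC2 target, was at 0 in 9 of the 12 libraries and at 0.0462 to 0.0581 CPM in the other 3.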

How the data were processed

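RNA-seq of 12 libraries was analysed. Per the submitters' processing notes, the authors aligned reads with STAR 2.5.2b to mm10. The deposited values used are raw counts of fragments per gene from featureCounts 1.5.2, counted over RefSeq exons with strand, per the file headers. The authors' deposited DESeq2 1.14.1 tables gave symbols and their log2 fold changes of WT over knockout with adjusted p-values, printed here with the sign turned.

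The test was that of edgeR 4.0.16 (R 4.3.3; TMM, filterByExpr by group, robust quasi-likelihood F test, Benjamini-Hochberg, threshold 0.05), each age on its 6 libraries, and the age comparisons in 1 fit of 12 libraries. Scripts were tested on simulated data. Groups came from the labels. Members and lists were chosen with earlier results of these data known. Named genes are the members, Ash2l, and, per list and age, up to 4 called genes by smallest p, or up to 2 as values where none was called. Alternatives were other scalings, no filter, DESeq2 1.42.0, sex, the replicate block, each library left out and, chosen after seeing the data, both libraries of a number left out.

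Same-numbered libraries deviated together at E16.5 (correlation across genes 0.281, 0.210 and 0.112, each over 0.1), so the numbers were taken to pair them there. The last was 0.0926 on the scaling of all 12 libraries. Of the libraries with different numbers, WT C and cKO B stood at 0.107, also over 0.1, and the others ran from -0.267 to -0.0045. The rule thus does not set the C pair apart, and the replicate block at E16.5 rests on it. Libraries of a group differed by more than sampling noise (chi-square per degree of freedom 9.51 to 51.5). The authors' normalised library columns were not used.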

Additional observations from a re-analysis of the deposited data

How the results depend on the processing

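With 3 libraries a group and 23 to 160 fragments a library, precision on Phf19 is limited. At E14.5 the count of members called was 0 to 1 without any 1 library, 0 without both B or both C libraries. At E16.5, where the main count is 1, it was 2 with library totals and 3 with the replicate block, where 32.2% of all genes were called. It was 1 to 2 without any 1 library, 2 without both A and 0 without both B libraries, the fit that called 0 genes. Over age in WT it was 0 with sex as a term, 0 to 1 without any 1 library, and 0 without both A or both C libraries of E14.5 or both A or both B of E16.5. Over age in cKO it was 1 with library totals, 1 with DESeq2, 0 to 1 without any 1 library, and 1 without both B of E14.5. Where no share of all genes stands beside them, these counts are not results about the members, since the number of all genes called also varied between fits. The cause was not tested. The ratio of Ezh2 to Ezh1 differed by 0.24 with the replicate block over all 6 numbers, those of E14.5 included (adjusted p = 0.0469), and by 0.16 to 0.31 without any 1 library, passing without E16.5 WT C (exact permutation, adjusted p = 0.045). That of Mtf2 to Phf19 was 1.41 at E14.5 and 2.20 at E16.5 alone, where 20 assignments cannot pass, and 1.68 to 1.89 without any 1 library. That of Rbbp7 to Rbbp4 ran from -0.0017 to 0.0804 without any 1 library. With sex as a term, Uty, which is Y-linked, was at 1.53 (adjusted p = 0.664). At E14.5 same-numbered libraries correlated at 0.272, 0.304 and -0.0022 and were not taken as paired, and with the replicate block Phf19 was at -1.40 (adjusted p = 0.0129), which kept its call. Of 42 member changes with no reported direction, 23 changed sign under some alternative, all with a log2 fold change under 0.16.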
